A study of Homo sapiens with 12 samples.

Results

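The mitochondrial ribosomal proteins are the nuclear-encoded proteins of the mitoribosome, and their mRNAs were followed here across 4 groups of ARPE-19 cells, an established line from the human retinal pigment epithelium (RPE). The family was taken as every protein-coding line of the deposited count table whose gene name begins with MRPL or MRPS followed by a digit. This gave 78 genes of 40591 lines with a symbol and 60605 lines in all. Of these, 77 passed the low-count filter and were tested. The remaining member, MRPL53, had 0 reads in each of the 12 libraries.

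All libraries were poly(A) RNA from ARPE-19 cells, with 3 libraries a group. The GFP, GSTA4 and OSK cells were stable lines that had expressed an open reading frame (ORF) for 4 days, and the labels give no such time for WT. WT cells carried no named ORF, and GFP cells expressed the fluorescent protein used as the control ORF. GSTA4 cells expressed glutathione S-transferase alpha 4, an enzyme that conjugates lipid aldehydes to glutathione. OSK cells expressed the reprogramming factors, read here as KLF4, SOX2 and POU5F1 (OCT4). Neither vector nor promoter is named in the labels, which also leave unsaid if a group's 3 libraries are separate cultures or 1 line. The p-values may therefore measure technical spread only, and the effect of an ORF and other differences between the lines cannot be told apart.

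The mitoribosome sits in the mitochondrial matrix and translates only the mRNAs of the mitochondrial genome, which encode core subunits of the respiratory chain and ATP synthase. Its small subunit decodes the mRNA, and its large subunit forms the peptide bond and releases the chain towards the inner membrane. Its rRNAs come from mitochondrial DNA, while its proteins are made in the cytosol and imported. Many of these proteins have a bacterial homologue, and others were added in the mitochondrial lineage. RPE cells depend heavily on mitochondrial oxidative metabolism.

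Sorted by role, 26 members belong to the small subunit, of which 16 are counted as bacterial homologues and 10 as specific to mitochondria. The large subunit holds 51 members, 30 counted as bacterial homologues and 21 as specific to mitochondria. MRPS18A and MRPS30 are counted in the large subunit in spite of their names, because that is where they sit. MRPS36 is counted in neither, since it is now known as a component of the 2-oxoglutarate dehydrogenase complex.

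Total counts ran from 12630675 to 17045454 per library, and members took 0.211% to 0.244% of the reads on named genes. The ORFs matched the labels: GSTA4 had 5602 to 6260 reads in its own libraries and 66 to 327 elsewhere, and KLF4 had 12963 to 14575 reads in OSK and 4 to 42 elsewhere. Of 16 RPE markers, 11 reached 1 CPM (read counts scaled to library size with TMM factors) in every library, but RPE65, TTR and CRX were too low to be tested. The summed level of the RPE markers was 2328 to 2668 CPM in GFP, 1766 to 1841 in GSTA4 and 1524 to 1581 in OSK. Of 10 fibroblast or mesenchymal markers, 4 reached 1 CPM in every library, with a sum of 1246 to 1351 CPM in GFP, 1210 to 1374 in GSTA4 and 796 to 817 in OSK; the part of these markers in the results below was not tested. GFP replicate 1 stood apart, where 27349 named genes had reads and the other libraries had 19488 to 22073, and it gave the lowest of the 3 GFP values for 51 of the 77 members.

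Member mRNAs were of moderate abundance, with a mean over all libraries from 3.49 to 73.3 CPM, a median of 26.3 CPM and no library below 30 reads for any tested member. Levels were also taken in CPM per kb of each gene's principal annotated transcript, averaged over the 4 groups. The highest members were MRPS6 (63.8), MRPL20 (57.9), MRPL37 (49.4), MRPL33 (47.2), MRPS21 (46.3) and MRPL24 (43.4). MRPS6 owed its place to WT (130.2, raised by replicate 1) and was below MRPL20 in GFP (48.1 against 53.1), GSTA4 (45.8 against 57.7) and OSK (31.0 against 61.4). Some members share exonic bases with another gene, counted over all their annotated exons and on either strand. The 12 members with at least 20% shared, MRPL53 included, had a median of 7.58 CPM per kb. The median was 15.5 for the 25 members with at least 10% shared, which include these 12. It was 18.9 for the 53 members with under 10% shared. Whether sharing affected the levels was not tested. MRPL12, for example, shares 68.2% of its exonic bases with a protein-coding gene on the same strand, and MRPL53 shares 45.2% with CCDC142. Reads on shared bases may be lost or split in counting, so the levels of these members are uncertain.

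**Figure D1:**
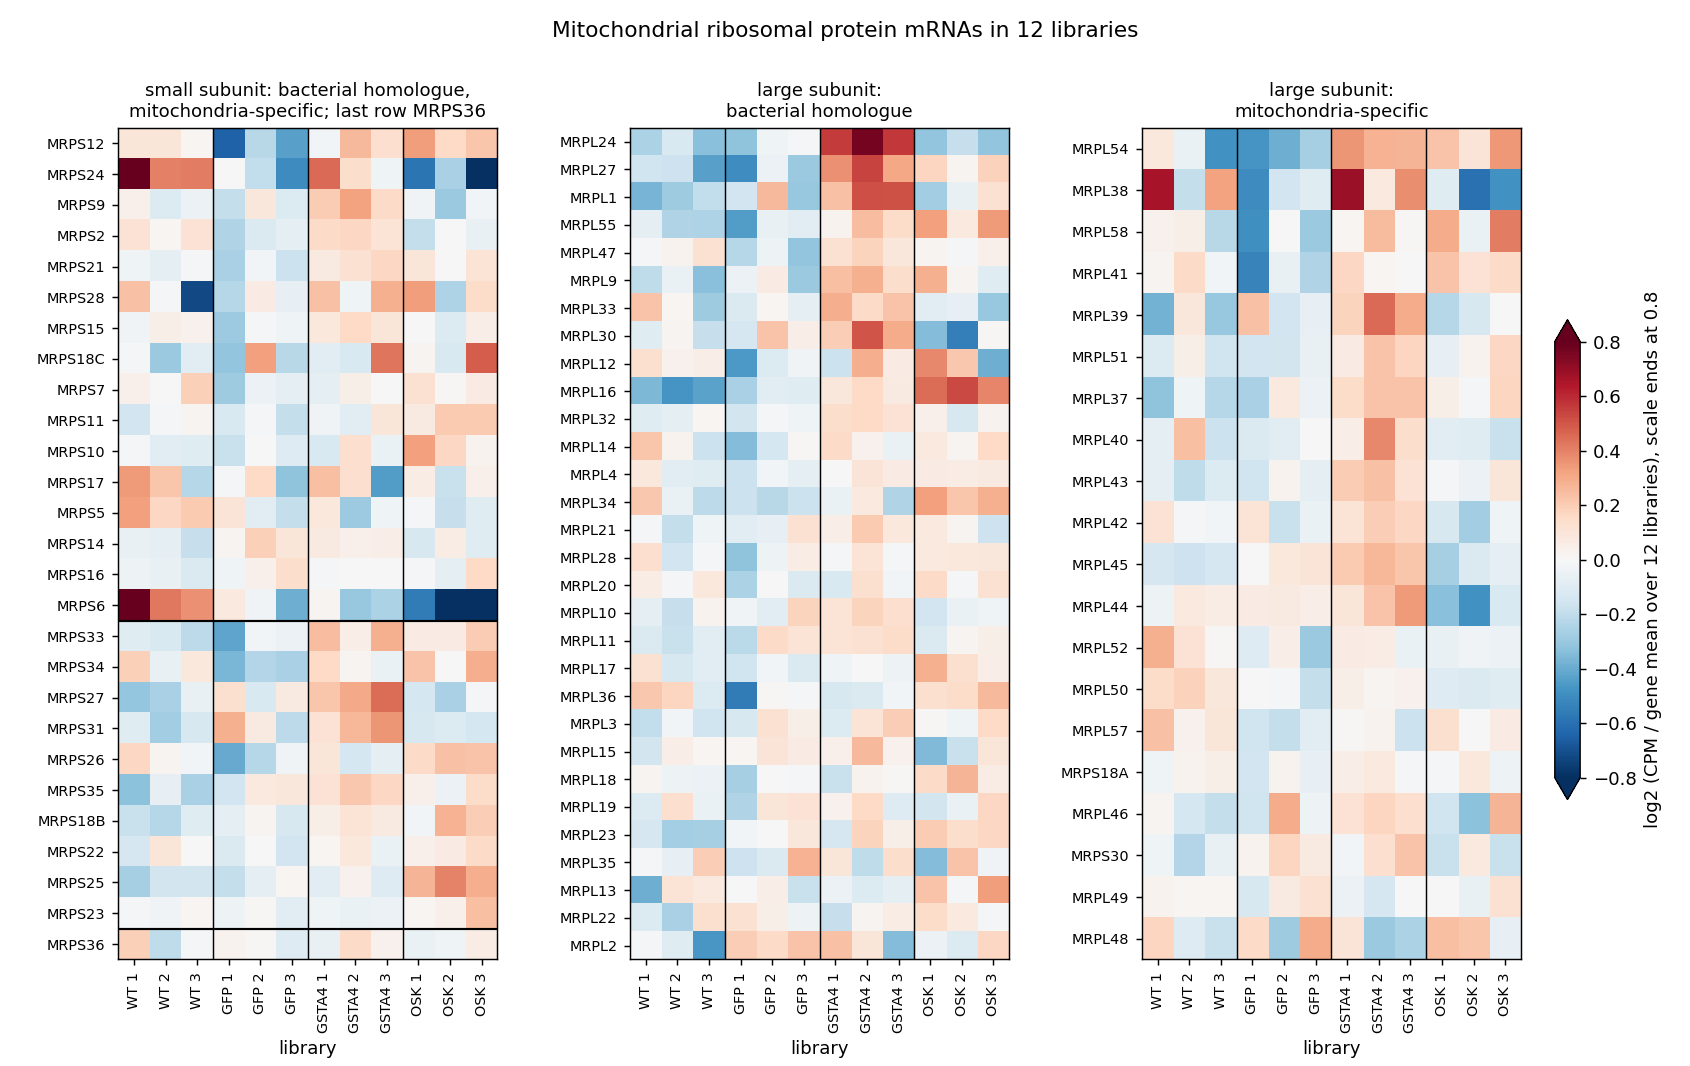
Level of each of the 77 tested members in each library, as log2 of CPM over the gene's mean across the 12 libraries (red above, blue below, scale ending at 0.8); rows are sorted within a class by the log2 fold change of GSTA4 against GFP. GSTA4 columns are red for most rows, the GFP replicate 1 column is blue for most rows, and MRPL16, MRPL24 and MRPS6 show single-gene patterns of their own.

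GSTA4 cells were compared with GFP cells to ask how the family differed between these groups. Of the 77 members tested, 17 rose and 0 fell (edgeR quasi-likelihood test, adjusted p under 0.05), 22.1% of members against 29.2% of all genes tested. By direction, 14.7% of all genes rose and 14.6% fell. In edgeR no member was lower even at an unadjusted p under 0.05, against 19.2% of all genes, and DESeq2 called 16 higher and 0 lower. The log2 fold change was above 0 for 67 of 77 members, against 51.1% of all genes. The median member stood at 0.14 on the log2 scale, and the median of all genes was 0.01. The rises were small, from 0.25 to 0.75 on the log2 scale. For 31 members GSTA4 and GFP libraries did not overlap, against 42.3% of all genes. The number called was 8 of 77 without GFP replicate 1, all higher, and 10.9% of all genes were then higher. It was 11 without GSTA4 replicate 1 or without GSTA4 replicate 2, all higher, against 11.7% and 11.1% of all genes higher. The share of members higher thus depended on GFP replicate 1.

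MRPL24, a large subunit protein of the uL24 family that binds rRNA early in assembly, rose the most. Its levels were 29.6, 32.5 and 29.7 CPM in OSK, 54.5, 62.7 and 54.6 in GSTA4, 29.6, 36.1 and 36.5 in GFP and 31.0, 34.0 and 29.3 in WT. The 3 GSTA4 libraries lay above all 9 others, which overlapped among themselves. The log2 fold change was 0.75 (SE 0.09, adjusted p = 2.88e-06) against GFP and 0.87 (SE 0.09, adjusted p = 2.67e-07) against WT. OSK against GFP gave -0.15 (SE 0.10, adjusted p = 0.196), and OSK lay below GSTA4 (log2 fold change -0.90, SE 0.09, adjusted p = 6.76e-08).

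MRPL27, a large subunit protein whose bacterial relative reaches towards the peptidyl transferase centre, had 28.4, 25.6 and 28.6 CPM in OSK, 32.4, 36.7 and 31.2 in GSTA4, 17.9, 24.4 and 20.5 in GFP and 22.6, 22.5 and 18.6 in WT. Both GSTA4 and OSK libraries were above every WT and GFP library, and GSTA4 above every OSK library. It rose by 0.67 (SE 0.11, adjusted p = 0.000107) in GSTA4 and by 0.39 (SE 0.11, adjusted p = 0.00726) in OSK, the latter a call lost without GFP replicate 1 (0.29). MRPL54, a mitochondria-specific protein of the large subunit, had 10.8, 11.4 and 12.4 CPM in GFP, 19.1, 18.1 and 18.0 in GSTA4, 17.5, 16.1 and 19.0 in OSK, and 15.9, 14.4 and 10.7 in WT. Its log2 fold change was 0.67 in GSTA4 (SE 0.13, adjusted p = 0.000618) and 0.60 in OSK (SE 0.13, adjusted p = 0.000925) against GFP. The WT libraries spread over a range that touched the GFP values at its lower end.

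Among the small subunit members, 6 of 26 rose in GSTA4, and among the large subunit members 11 of 50 tested, against 14.7% of all genes. The median log2 fold change was 0.15 and 0.14 in these subunits. By class, 3 of 16 and 6 of 30 bacterial homologues of the small and large subunit rose, and 3 of 10 and 5 of 20 tested mitochondria-specific members. MRPL1, which forms the mobile stalk beside the tRNA exit site, went from 7.22, 9.61 and 6.52 CPM in GFP to 9.47, 11.5 and 11.4 in GSTA4. Its lowest GSTA4 library lay just under the highest GFP library, and the call (log2 fold change 0.47, adjusted p = 0.0362) was lost without GFP replicate 1 or 3 or GSTA4 replicate 2 or 3, with values of 0.35 to 0.43. MRPS33, a small subunit protein, had a log2 fold change of 0.35, with the call lost without GFP replicate 1 (0.23) or GSTA4 replicate 3 (0.31). MRPS27, a small subunit protein of pentatricopeptide repeats, rose by 0.29, with the call lost without GFP replicate 2 (0.22) or GSTA4 replicate 3 (0.23). MRPL47 rose by 0.32, a call that 4 of the 6 libraries compared could each remove (0.26 to 0.33 without GFP replicate 1 or 3, or GSTA4 replicate 1 or 2) and that was also lost with no low-count filter or with only these 6 libraries. The other members that rose were MRPL9, MRPL16, MRPL37, MRPL41, MRPL43, MRPL51, MRPS2, MRPS12, MRPS21 and MRPS34.

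Against WT as the control, which shares the GSTA4 libraries with the comparison above, 20 members were higher in GSTA4 and 2 lower, with 38.6% of all genes called (19.7% higher and 19.0% lower). The 2 lower members were MRPS6 and MRPS5. Of the 17 members that rose against GFP, 11 were also higher than in WT: MRPL1, MRPL9, MRPL16, MRPL24, MRPL27, MRPL37, MRPL43, MRPL51, MRPL54, MRPS27 and MRPS33. The other 6, which include MRPS12, MRPS34 and MRPL41, were called against GFP alone.

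The windows directly before the RefSeq transcription start are shown for the 3 members that rose the most in GSTA4 and for MRPS12 and MRPS34, which rose in GSTA4 and OSK. Each run holds the 100 bases upstream of the start, 5′ to 3′ along the gene (GRCh38.p14). Capitals mark matches to CCGGAAGT, the core word of ETS factors, on either strand. The intervals are chr1:156741089-156741188 (minus strand) for MRPL24, chr17:50373185-50373284 (minus) for MRPL27, chr19:3762582-3762681 (plus) for MRPL54, chr19:38930844-38930943 (plus) for MRPS12 and chr16:1773135-1773234 (minus) for MRPS34.
MRPL24: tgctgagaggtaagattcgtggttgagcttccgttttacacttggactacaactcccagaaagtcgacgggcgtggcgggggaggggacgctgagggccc
MRPL27: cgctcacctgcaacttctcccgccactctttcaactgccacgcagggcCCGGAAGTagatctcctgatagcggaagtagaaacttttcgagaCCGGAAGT
MRPL54: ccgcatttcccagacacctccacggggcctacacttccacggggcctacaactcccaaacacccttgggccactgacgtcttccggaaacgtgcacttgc
MRPS12: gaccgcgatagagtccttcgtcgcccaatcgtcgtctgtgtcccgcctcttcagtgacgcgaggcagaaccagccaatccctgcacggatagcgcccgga
MRPS34: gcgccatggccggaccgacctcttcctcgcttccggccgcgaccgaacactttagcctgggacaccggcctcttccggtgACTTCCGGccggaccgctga
In these stretches MRPL27 holds the word in the gene direction at more than 1 place, MRPS34 holds it once on the other strand, and the remaining 3 hold no match.

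A search of the whole RefSeq window, from 250 bases before to 50 bases after the start, covered 69 members, 27305 genes in all and 11275 genes among those tested. The ETS word was found in 11 members (15.9%), against 8.44% of the tested genes' windows. The NRF1 word, read by the factor NRF1 that is known for nuclear genes of the respiratory chain, was found in 8 members (11.6%) and in 11.5% of the tested genes' windows. The E-box CACGTG, a word of MYC and related factors, was found in 6 members (8.70%) and in 9.99% of the tested genes' windows. The YY1 word AAGATGGCG was found in 13 members (18.8%), against 3.76% of the tested genes' windows. Both strands were searched for all 4 words, and none of the words contains another. A match describes letters only and is not a binding site.

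In 10 of the 13 members with the YY1 word it lay after the start, with its first base at position 7 to 36, and always in the gene's own direction. The matches of 5 of them are shown as examples, with the word in capitals and its flanks in lower case (RefSeq, GRCh38.p14). Others of the 10, such as MRPS30 and MRPL46, also have gcg directly after the word. The word holds the letters ATG, and whether these are the start codons of the genes was not examined. The intervals are chr6:43687766-43687790 (minus) for MRPS18A, chr6:30617855-30617879 (plus) for MRPS18B, chr7:43869482-43869506 (minus) for MRPS24, chr17:75904862-75904886 (minus) for MRPL38 and chr6:42217836-42217860 (minus) for MRPS10.
MRPS18A: ggtttttgAAGATGGCGgccctcaa
MRPS18B: cgtacgtcAAGATGGCGgcgtctgt
MRPS24: cttggcccAAGATGGCGgcctccgt
MRPL38: ccggagggAAGATGGCGgcgccctg
MRPS10: ggaccggcAAGATGGCGgcgcggac
None of the 13 members with this word was called in GSTA4 against GFP, compared with 17 of the 55 tested members without it. For OSK against GFP the counts were 3 of 13 and 19 of 55. For the ETS word, 5 of 10 tested members with it and 12 of 58 without it were called in GSTA4 against GFP. In OSK against GFP these were 3 of 10 and 19 of 58. For the NRF1 word the counts were 1 of 8 and 16 of 60 in GSTA4, and 5 of 8 and 17 of 60 in OSK. For the E-box they were 1 of 6 and 16 of 62 in GSTA4, and 2 of 6 and 20 of 62 in OSK. Of all genes tested, 29.2% were called in GSTA4 against GFP and 45.9% in OSK against GFP. The shares called among all tested genes with each word were not taken. The counts by word are therefore descriptions of few members, looked at after the calls were known, and differences between them were not tested.

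**Figure D2:**
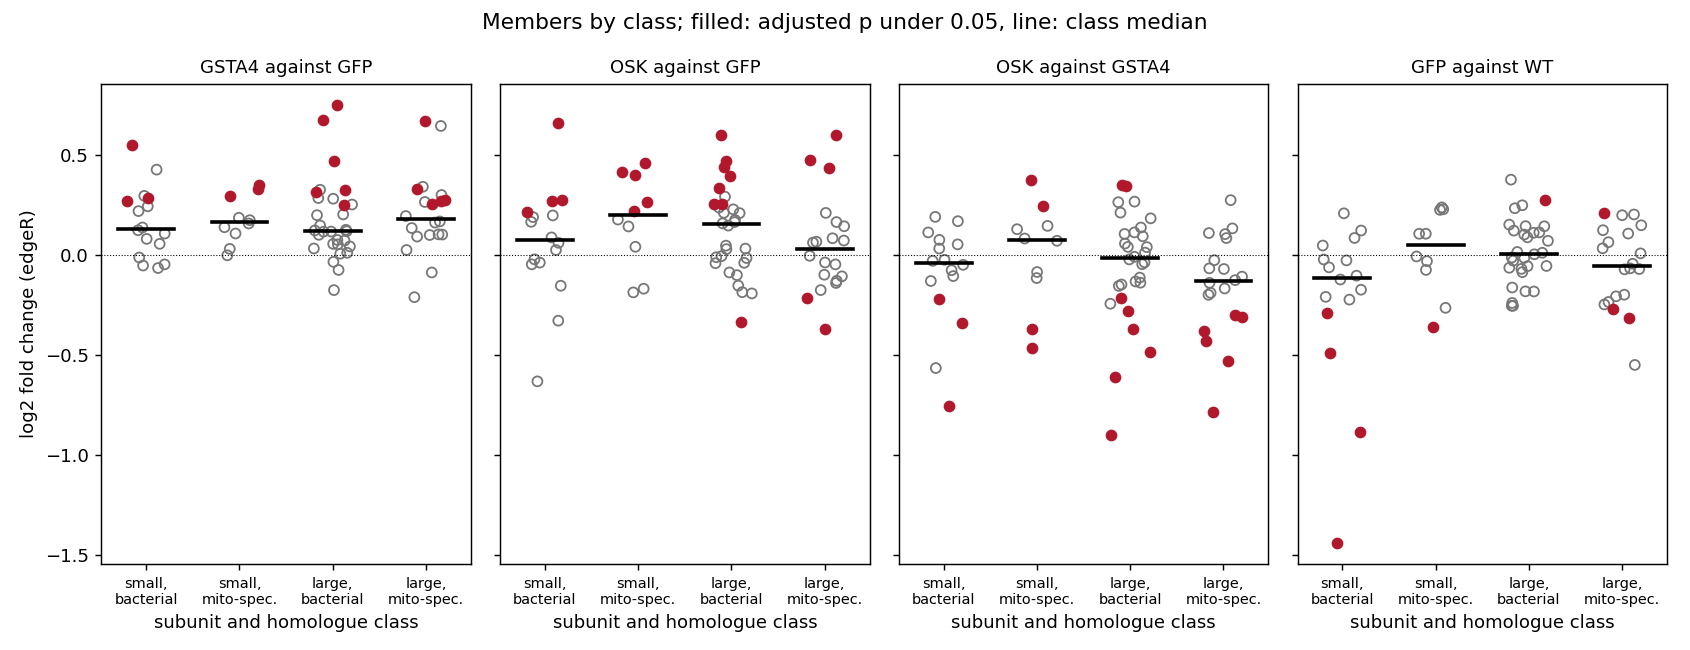
Log2 fold change of each tested mitoribosome subunit (all tested members but MRPS36) in 4 comparisons, by subunit and homologue class; filled points passed an adjusted p of 0.05 and lines are class medians. In GSTA4 against GFP all filled points are above 0, and in OSK against GSTA4 17 of 21 are below 0.

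Expression of the OSK factors was compared with the same GFP libraries. Of the 77 members, 19 rose and 3 fell, 28.6% of members against 45.9% of all genes (23.1% higher and 22.8% lower). With library sizes alone in place of TMM scaling, 10 members were higher and 8 lower, and the shares of all genes moved with them, to 18.2% higher and 27.5% lower. The balance of direction in OSK thus depends on the scaling. The median member was at 0.07 with TMM and at -0.0008 with library sizes alone, where the median of all genes was -0.09. With TMM, 48 members had a log2 fold change above 0, against 48.2% of all genes. The groups did not overlap for 29 members, against 54.7% of all genes. Without GFP replicate 1, 9 members were higher and 4 lower, against 20.6% and 20.4% of all genes.

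MRPL16, a large subunit protein of the uL16 family near the peptidyl transferase centre, had its highest values in OSK. Its levels were 29.2, 30.9 and 28.0 CPM in OSK, 22.8, 23.9 and 22.5 in GSTA4, 17.9, 20.2 and 20.0 in GFP and 16.7, 15.4 and 15.9 in WT. The 4 groups did not overlap at any step of this order. The log2 fold change of OSK was 0.60 against GFP (SE 0.09, adjusted p = 1.4e-05), 0.35 against GSTA4 (SE 0.09, adjusted p = 0.0025) and 0.87 against WT (SE 0.09, adjusted p = 8.46e-08). The smaller steps were near the threshold. GSTA4 against GFP gave 0.25 (SE 0.09, adjusted p = 0.045), a call lost in 14 of 15 alternatives (0.20 to 0.27): without any 1 of the 6 libraries, and under DESeq2, library sizes alone and the replicate block among others. The counts of members called against both controls or in both ORF groups hold this call. GFP against WT gave 0.28 (SE 0.09, adjusted p = 0.0396), lost without any 1 of 5 of the 6 libraries, all but GFP replicate 1 (0.25 to 0.30), and also under DESeq2, with no low-count filter and with only these 6 libraries.

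MRPS25, a mitochondria-specific protein of the small subunit, had 85.5, 93.4 and 86.5 CPM in OSK, 66.8, 72.5 and 66.0 in GSTA4, 62.0, 67.4 and 71.7 in GFP and 59.0, 64.0 and 64.0 in WT. The OSK libraries lay above all 9 others, among which the groups overlapped. It rose by 0.40 against GFP (SE 0.07, adjusted p = 8.82e-05) and by 0.37 against GSTA4 (SE 0.07, adjusted p = 0.000166), while GSTA4 against GFP gave 0.03 (SE 0.07, adjusted p = 0.797). Of its exonic bases, 22.2% lie opposite NR2C2 on the other strand, and the counting may not have used strand.

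MRPL34, a large subunit protein with a bacterial homologue, had 24.8, 24.0 and 24.8 CPM in GFP, 35.1, 32.6 and 34.0 in OSK, 27.0, 29.6 and 23.7 in GSTA4, and 32.5, 26.9 and 24.2 in WT. It rose by 0.47 against GFP (SE 0.10, adjusted p = 0.000985) and by 0.34 against GSTA4 (SE 0.10, adjusted p = 0.00934), the latter lost without GSTA4 replicate 3 (0.26). WT replicate 1 came just below the lowest OSK library. MRPS26, a mitochondria-specific small subunit protein, rose by 0.41 against GFP (SE 0.10, adjusted p = 0.00162), from 23.2 to 30.1 CPM in GFP to 34.1 to 36.1 CPM in OSK. MRPL55, the bL31 protein of the large subunit, rose by 0.44 against GFP, a call lost without GFP replicate 1 (0.33).

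The 3 members that fell in OSK belong to the large subunit. MRPL44, a protein with a ribonuclease III fold, had 18.0, 16.2 and 20.9 CPM in OSK, 24.3, 26.6 and 28.7 in GSTA4, 23.7, 23.9 and 23.5 in GFP and 22.0, 23.9 and 23.6 in WT. Its OSK libraries were below every other library. It fell by 0.37 on the log2 scale against GFP (SE 0.10, adjusted p = 0.00558), by 0.53 against GSTA4 (SE 0.10, adjusted p = 0.000186) and by 0.34 against WT (SE 0.10, adjusted p = 0.00983). MRPL45, which lies by the exit tunnel and links the mitoribosome to the inner membrane, had 63.6, 67.4 and 68.2 CPM in GFP and 52.9, 58.7 and 60.1 in OSK. It fell by 0.22 against GFP (SE 0.07, adjusted p = 0.0118), a call lost without OSK replicate 1 (-0.15) or with no low-count filter. WT lay at 57.8, 56.6 and 57.8 CPM, within the OSK range. MRPL30, with 21.5, 27.7 and 24.5 CPM in GFP and 18.6, 16.2 and 23.8 in OSK, overlapped between the groups. Its log2 fold change of -0.33 (adjusted p = 0.0395) lost the call without GFP replicate 2 or 3 or OSK replicate 1 or 2, and without OSK replicate 2 it was -0.21.

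In the small subunit 9 of 26 members rose in OSK and 0 fell (adjusted p under 0.05, edgeR fit of all 12 libraries). In the large subunit 10 rose and 3 fell of 50. Of all genes, 23.1% rose and 22.8% fell. These counts used TMM scaling, and the balance of direction in OSK depends on the scaling. The small subunit count of 0 also depended on the libraries fitted. MRPS6, a small subunit member, had a log2 fold change of -0.63 (adjusted p = 0.148) with all 12 libraries. MRPS6 was called lower when only the 6 libraries of OSK and GFP were fitted, which leaves out the spread of WT. The median log2 fold change was 0.15 in the small subunit and 0.06 in the large. Among the mitochondria-specific members, 5 of 10 rose in the small subunit and 3 of 20 in the large. Against WT, which shares the OSK libraries, 12 members were higher and 6 lower in OSK, with 45.4% of all genes called (22.7% higher and 22.7% lower). Of the 19 members that rose against GFP, 9 were also higher than in WT: MRPL16, MRPL27, MRPL34, MRPL54, MRPL55, MRPS10, MRPS18B, MRPS25 and MRPS33. MRPS33 against GFP (0.26, adjusted p = 0.0369) lost its call without GFP replicate 1 or OSK replicate 2 or 3 (0.15 to 0.29), or with library sizes alone. The paralogs of the MRPS18 group, which all derive from 1 bacterial protein, differed in level and in call. Only MRPS18C is counted here with the bacterial homologues, while MRPS18A and MRPS18B are counted as mitochondria-specific. MRPS18B had 36.8 to 40.7 CPM in GFP and 39.6 to 48.7 in OSK (log2 fold change 0.22, adjusted p = 0.0364), a call lost without GFP replicate 1 or 3 or OSK replicate 2 or 3 (0.16 to 0.21), with library sizes alone (0.15) and with either other low-count filter. MRPS18A stayed between 14.8 and 17.5 CPM in all 12 libraries, and MRPS18C between 6.39 and 11.1 CPM, with no call in any of the 4 main comparisons.

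**Figure D3:**
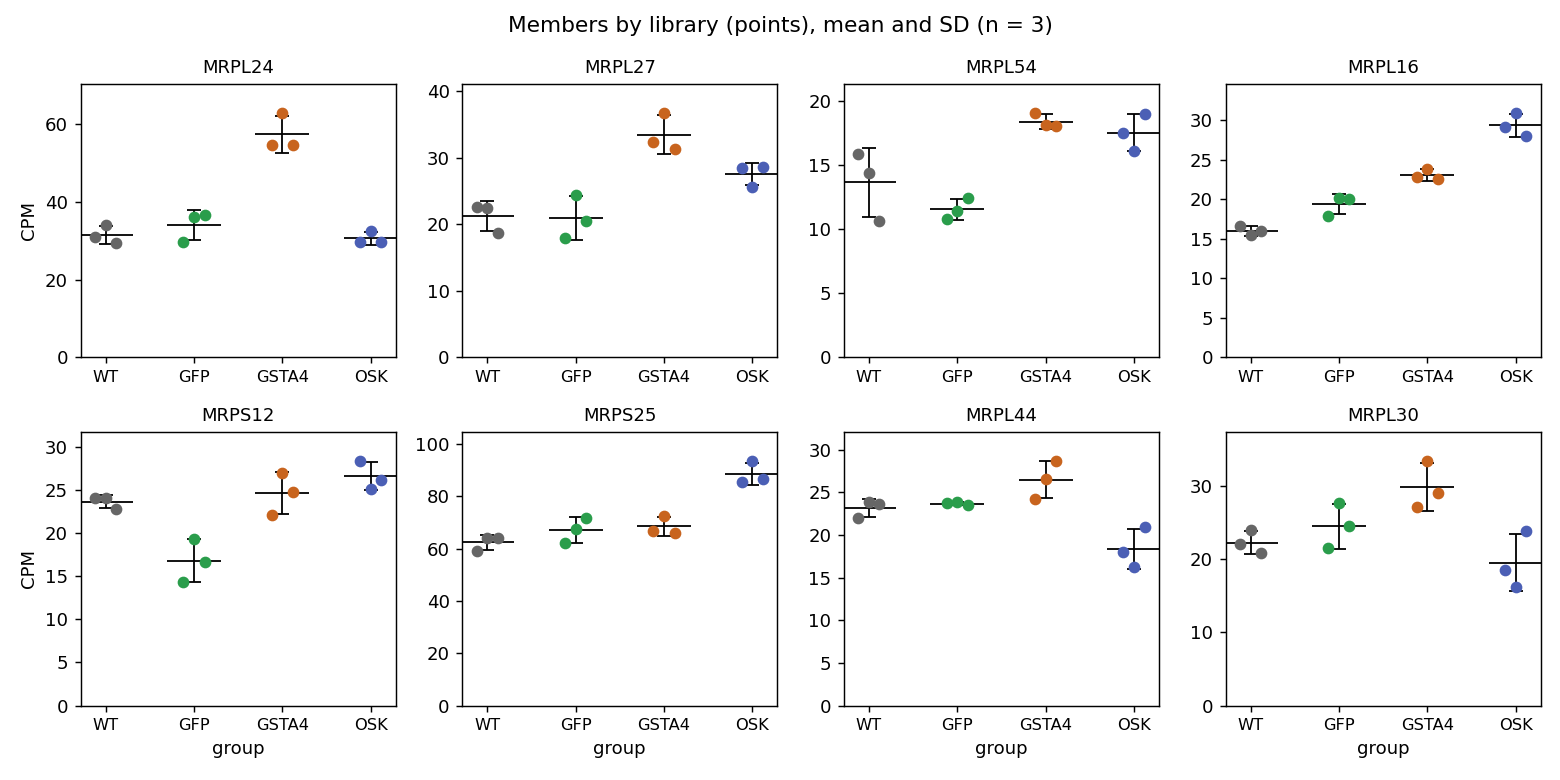
CPM of 8 members in each library (points), with the mean and SD of 3 libraries a group. MRPL24 is high in GSTA4 alone, MRPL27 and MRPL54 are higher in GSTA4 and OSK than in GFP, MRPL16 and MRPS25 are highest in OSK, MRPS12 is lowest in GFP, and MRPL44 and MRPL30 have their lowest means in OSK.

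OSK and GSTA4 were then compared directly, which tests whether the members differed between these groups. Of 77 members, 4 were higher in OSK and 17 were lower, 27.3% of members against 47.8% of all genes (24.1% higher and 23.8% lower). The groups did not overlap for 33 members, against 58.0% of all genes. The median member was at -0.05 and the median of all genes at -0.01. With library sizes alone the counts were 3 higher and 21 lower (20.8% and 28.2% of all genes), with a member median of -0.11 and an all-gene median of -0.08.

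The 4 members higher in OSK were MRPL16, MRPL34, MRPS25 and MRPS26, the last with a log2 fold change of 0.24 and a call lost without GSTA4 replicate 2 or 3 or OSK replicate 2 or 3 (0.19 to 0.24), with library sizes alone or with no low-count filter. Beside MRPL24, the lower members chosen by the rule for named genes whose calls no single library removed were MRPL30 (-0.61, SE 0.13, adjusted p = 0.000424), MRPL44 (values above), MRPS27 (-0.46, SE 0.09, adjusted p = 0.000143) and MRPL45 (-0.38, SE 0.07, adjusted p = 6.44e-05). MRPS27 had 81.9, 86.9 and 95.9 CPM in GSTA4 and 63.8, 58.7 and 69.5 in OSK. MRPL45 had 73.3, 76.3 and 74.1 CPM in GSTA4, above every other library in the series. MRPL38 and MRPS24, at 2.11 to 5.40 CPM the least abundant members called here, had log2 fold changes of -0.79 and -0.76. The call of MRPL38 was lost without GSTA4 replicate 1 or OSK replicate 2 or 3 (-0.73 to -0.61), and that of MRPS24 without GSTA4 replicate 1 or OSK replicate 1 or 3 (-0.73 to -0.60). Both share over 20% of their exonic bases with another gene on the same strand, MRPS24 with the readthrough gene URGCP-MRPS24. MRPL39 (-0.43) lost its call without GSTA4 replicate 2 or OSK replicate 1 or 2 (-0.42 to -0.36), and MRPL1 (-0.49) without GSTA4 replicate 2 or 3 or OSK replicate 1 (-0.44 to -0.37).

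Both ORF groups were set against the same GFP libraries, so members called in both comparisons share those control values. There were 8 of these: MRPL16, MRPL27, MRPL41, MRPL54, MRPS12, MRPS21, MRPS33 and MRPS34, all higher. This was 10.4% of members, and 5.26% of all genes were higher in both. GSTA4 and OSK themselves differed in 2 of the 8, MRPL16 (higher in OSK) and MRPL27 (lower in OSK, -0.28, adjusted p = 0.0399). The MRPL27 difference was lost without GSTA4 replicate 1 or 2 or any 1 OSK library (-0.30 to -0.21), and also under DESeq2, with RLE size factors and with lines without a symbol kept. Of 9 members called for GSTA4 alone, 4 differed directly between GSTA4 and OSK, and of 14 called for OSK alone, 6 did. The remaining 13 therefore met the threshold for 1 ORF without a called difference between the ORFs.

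GFP was compared with WT to see what the control ORF line itself differed in. Here 2 members rose and 7 fell, 11.7% of members against 22.2% of all genes (11.0% higher and 11.2% lower). The groups did not overlap for 20 members, against 34.6% of all genes. The number called was 4 without WT replicate 1 (1 higher and 3 lower), 4 without GFP replicate 3 (0 higher and 4 lower) and 4 when only the 6 libraries compared were fitted. Of all genes, 16.2%, 18.1% and 16.6% were then called, in that order. MRPL16 and MRPL45 were the higher members, and MRPL45 (0.21, adjusted p = 0.0273) lost its call without any 1 WT library or GFP replicate 2 or 3 (0.19 to 0.21).

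MRPS12, the uS12 protein of the decoding centre, had 28.4, 25.2 and 26.2 CPM in OSK, 22.2, 27.0 and 24.8 in GSTA4, 14.4, 19.4 and 16.7 in GFP and 24.1, 24.1 and 22.8 in WT. The GFP libraries lay below all 9 others. The log2 fold change was -0.49 for GFP against WT (SE 0.11, adjusted p = 0.00298), 0.55 for GSTA4 against GFP (SE 0.11, adjusted p = 0.000688) and 0.66 for OSK against GFP (SE 0.11, adjusted p = 4.34e-05). Against WT, GSTA4 gave 0.06 (SE 0.11, adjusted p = 0.709) and OSK 0.17 (SE 0.10, adjusted p = 0.206). The same shape was seen in MRPS34 and MRPL41. MRPS34, a small subunit protein, had 29.8, 25.0 and 27.7 CPM in WT and 20.2, 22.2 and 21.8 in GFP, with 25.1 to 29.2 in GSTA4 and 26.0 to 31.9 in OSK. MRPL41, a large subunit protein, had 33.6, 36.8 and 32.6 CPM in WT and 22.8, 31.7 and 28.0 in GFP, with 33.0 to 37.1 in GSTA4 and 35.9 to 38.7 in OSK. In these 3 members no difference of GSTA4 or OSK from WT was called, with log2 fold changes from -0.03 to 0.17.

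The calls of MRPS34 were lost without GFP replicate 1, both against WT (-0.32) and in GSTA4 (0.29), and also without WT replicate 1 (-0.31) and GSTA4 replicate 1 (0.27) respectively. For MRPL41, leaving out GFP replicate 1 moved GFP against WT from -0.32 to -0.20 and GSTA4 against GFP from 0.33 to 0.21, and both calls were lost. The former was also lost without WT replicate 2 (-0.27) or GFP replicate 3 (-0.33), and the latter without GSTA4 replicate 1 (0.28). In OSK against GFP, MRPS34 (0.46, adjusted p = 0.000828) and MRPL41 (0.43, adjusted p = 0.00145) stayed called without any 1 library. Of the other members lower in GFP than WT, MRPS24 (-0.89) lost its call without WT replicate 1 (-0.63) or GFP replicate 3 (-0.76). MRPS5 (-0.29) lost it without WT replicate 1 or 3 or GFP replicate 2 or 3 (-0.31 to -0.23), and MRPL57 (-0.27) without WT replicate 1 or 3 or any 1 GFP library (-0.30 to -0.22). With only the 6 libraries of GFP and WT fitted, MRPL41, MRPL45, MRPL57 and MRPS5 were not called, nor was MRPS5 with library sizes alone, nor MRPL45 and MRPL57 with no low-count filter.

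MRPS6, a small subunit protein with a bacterial homologue, was the one member whose log2 fold change passed 1 in size in the 4 main comparisons. This was in GFP against WT, where 3.31% of all genes were called with a size of at least 1. In MRPS6, 1 library set most of the change. It had 4054 reads in WT replicate 1 against 934 and 1116 in the other WT libraries, and 708, 700 and 574 in GFP. In CPM these were 252, 68.6 and 65.8 in WT, 53.8, 50.2 and 39.0 in GFP, 51.9, 41.4 and 42.8 in GSTA4, and 34.7, 28.4 and 29.1 in OSK. The WT libraries lay above all others and the OSK libraries below all others, but WT replicate 1 was far from its own group. In that library 10.6% of all member reads fell on MRPS6, against 1.25% to 3.18% in the other 11. On the log2 scale, GFP against WT gave -1.44 (SE 0.33, adjusted p = 0.00368), and -0.50 without WT replicate 1 (adjusted p = 0.00113). OSK against GFP gave -0.63 (SE 0.35, adjusted p = 0.148) in the fit of all 12 libraries and -0.64 (adjusted p = 2.59e-05) when only the 6 libraries of these groups were fitted, which leaves out the spread of WT. OSK against GSTA4 likewise gave -0.57 (adjusted p = 0.196) and, with 6 libraries, -0.57 (adjusted p = 1.07e-05).

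MRPS6 shares 6.35% of its exonic bases with SLC5A3, a transporter of myo-inositol encoded inside the same locus on the same strand. SLC5A3 had 29777 reads in WT replicate 1 against 7874 and 9577 in the other WT libraries. MRPS6 had 11.6 to 15.6 reads per 100 SLC5A3 reads in the WT, GFP and OSK libraries, WT replicate 1 included, and 19.3 to 21.7 in the GSTA4 libraries. Other genes of cell volume control were examined after these values were seen. AKR1B1, aldose reductase, had 4594 reads in WT replicate 1 against 1445 and 1761, and SLC6A6, a taurine transporter, had 1392 against 830 and 1050. NFAT5, the transcription factor of the response to hypertonic stress, did not stand out there, with 1825 reads against 1533 and 1788. Whether culture conditions had a part in these values was not tested, and reads of MRPS6 and SLC5A3 on their shared bases cannot be told apart.

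**Figure D4:**
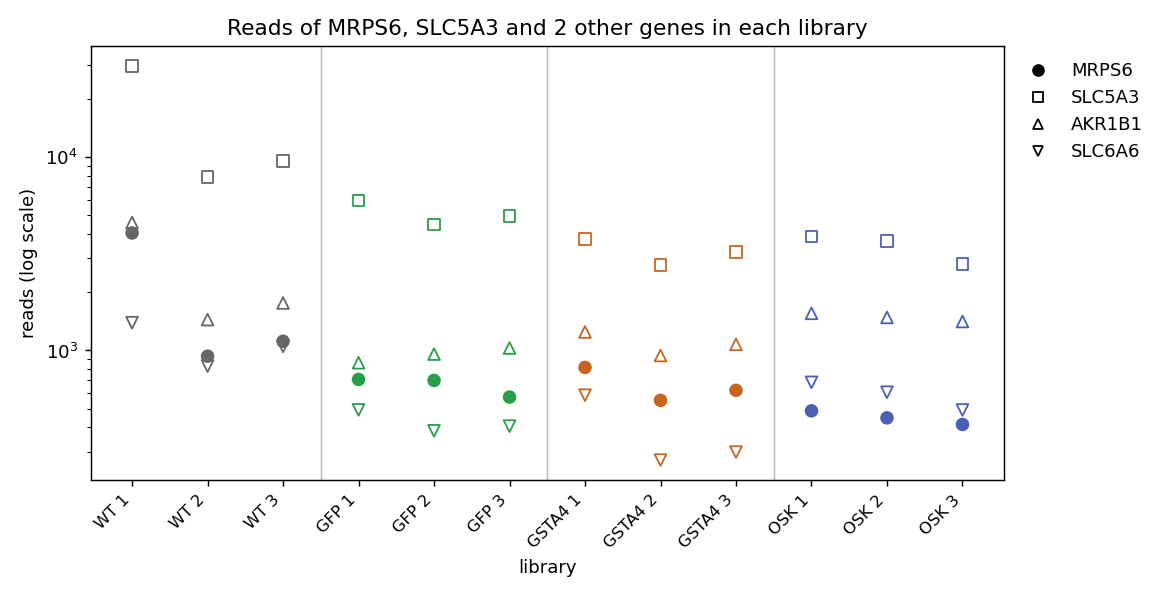
Reads of MRPS6 (filled circles), SLC5A3, AKR1B1 and SLC6A6 (open symbols) in each library on a log axis, coloured by group. All 4 genes are highest in WT replicate 1, where MRPS6 had 4054 reads and SLC5A3 29777.

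The summed level of the family was 2262 CPM ± 57.4 (SD, n = 3) in OSK, 2380 ± 44.6 in GSTA4, 2123 ± 97.4 in GFP and 2218 ± 136 in WT. In the same order, the sums without MRPS6 were 2232 ± 57.9, 2335 ± 49.5, 2075 ± 101 and 2089 ± 31.1. The 3 GSTA4 sums without MRPS6 (2288 to 2387) were above every WT and GFP sum (1960 to 2150) and overlapped the highest OSK sum (2186 to 2297). The ratio of small to large subunit sums was 0.644 ± 0.00313 in OSK, 0.613 ± 0.0185 in GSTA4, 0.629 ± 0.0179 in GFP and 0.704 ± 0.0736 in WT. MRPS6 in WT replicate 1 set the high WT value, since without MRPS6 the ratios were 0.621 ± 0.00277, 0.582 ± 0.0152, 0.592 ± 0.0105 and 0.605 ± 0.0163. These sums are descriptions and were not tested. In bulk RNA, a change in the number of cells of a kind and a change in RNA per cell cannot be told apart.

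By the F test over the 4 groups, 36 of 77 members differed somewhere, 46.8% against 66.9% of all genes tested. Counting the 4 main comparisons, 43 of the 77 tested members were called in at least 1 (55.8%, against 68.2% of all genes). The flattest tested members by this test were MRPL19, MRPL35, MRPS17, MRPS18A and MRPS36. MRPL19, for example, averaged 37.4 CPM ± 4.25 in OSK, 38.4 ± 3.50 in GSTA4, 37.5 ± 5.02 in GFP and 37.3 ± 3.41 in WT. With 3 libraries a group, small changes can be missed: on simulated data, 55.8% to 67.8% of changes of 0.5 on the log2 scale were recovered. That simulation gave all genes the same spread and changed fewer genes than were called here. Its share recovered therefore need not hold for these data.

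Genes that work with the mitoribosome were examined as lists, beside 14.7% of all genes higher and 14.6% lower in GSTA4, and 23.1% and 22.8% in OSK. Of 5 subunits with other names, PTCD3, a small subunit pentatricopeptide protein, rose in GSTA4 (0.25, adjusted p = 0.0198). In OSK, GADD45GIP1 (0.31) and DAP3 (0.22) rose. Of 29 assembly factors, 5 rose and 2 fell in GSTA4, and 6 rose and 3 fell in OSK, that is 17.2% and 20.7% higher. MALSU1, which keeps immature large subunits from joining small ones, rose by 0.62 in GSTA4 (adjusted p = 1.42e-05) and by 0.92 in OSK (adjusted p = 2.11e-08). TFB1M, the methyltransferase of the small subunit rRNA, rose by 1.03 in OSK (adjusted p = 0.00022), and MTERF3 fell by 0.68 in GSTA4 (adjusted p = 0.00189). Of 14 translation factors tested, 3 rose and 0 fell in GSTA4 and 4 rose and 1 fell in OSK. TUFM, the elongation factor that brings tRNAs to the mitoribosome, rose by 0.34 in GSTA4 (adjusted p = 0.000305) and by 0.26 in OSK (adjusted p = 0.0020). Of 20 mitochondrial aminoacyl-tRNA synthetases, 3 rose and 4 fell in GSTA4, and 1 rose and 2 fell in OSK, with NARS2 lower in both (-0.64 and -0.76).

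Among 19 genes of mitochondrial transcription and mRNA stability, 1 rose and 0 fell in GSTA4, and 4 rose and 5 fell in OSK. POLRMT, the mitochondrial RNA polymerase, was higher in GSTA4 (0.31, adjusted p = 0.00597). TFAM, which packages and transcribes mitochondrial DNA, was lower in OSK (-0.33, adjusted p = 0.00157), as was LRPPRC (-0.21), which stabilises mitochondrial mRNAs. Among 15 tested regulators of mitochondrial gene expression, 4 rose and 1 fell in GSTA4 and 3 rose and 3 fell in OSK. MYC rose by 0.42 and ATF5, a factor of the mitochondrial stress response, by 0.65 in GSTA4. In OSK, ESRRA rose by 0.60 and PPARGC1B by 2.34, and PPARGC1A fell by 0.79 on the log2 scale.

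The products that need the mitoribosome and its partners were compared last. Of 13 mitochondrially encoded mRNAs, 10 rose in GSTA4 and 8 in OSK, and 0 fell in either (edgeR; 14.6% and 22.8% of all genes fell). Of 75 nuclear respiratory chain subunits, 33 rose and 0 fell in GSTA4, and 33 rose and 1 fell in OSK, with medians of 0.22 and 0.19, so that 44.0% of the list was higher in each, against 14.7% and 23.1% of all genes. Beside these stand the 17 of 77 mitoribosome members that rose in GSTA4; the difference between the lists was not tested. Of 79 cytosolic ribosomal proteins, 51 rose and 0 fell in GSTA4, whereas 2 rose and 36 fell in OSK. GFP itself differed from WT in this list, with 27 higher and 0 lower (11.0% and 11.2% of all genes). Against WT, 69 were higher and 0 lower in GSTA4 (19.7% and 19.0% of all genes). In OSK against WT, 6 were higher and 3 lower (22.7% and 22.7% of all genes). In OSK against GSTA4, 70 of the 79 cytosolic proteins were lower, against 23.8% of all genes. Of the 77 mitochondrial ones 17 were lower (22.1%), near the share of all genes. The median log2 fold change there was -0.39 for the cytosolic and -0.05 for the mitochondrial ribosomal proteins. GFP replicate 1 was also the lowest GFP library in the summed level of all 4 lists plotted.

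**Figure D5:**
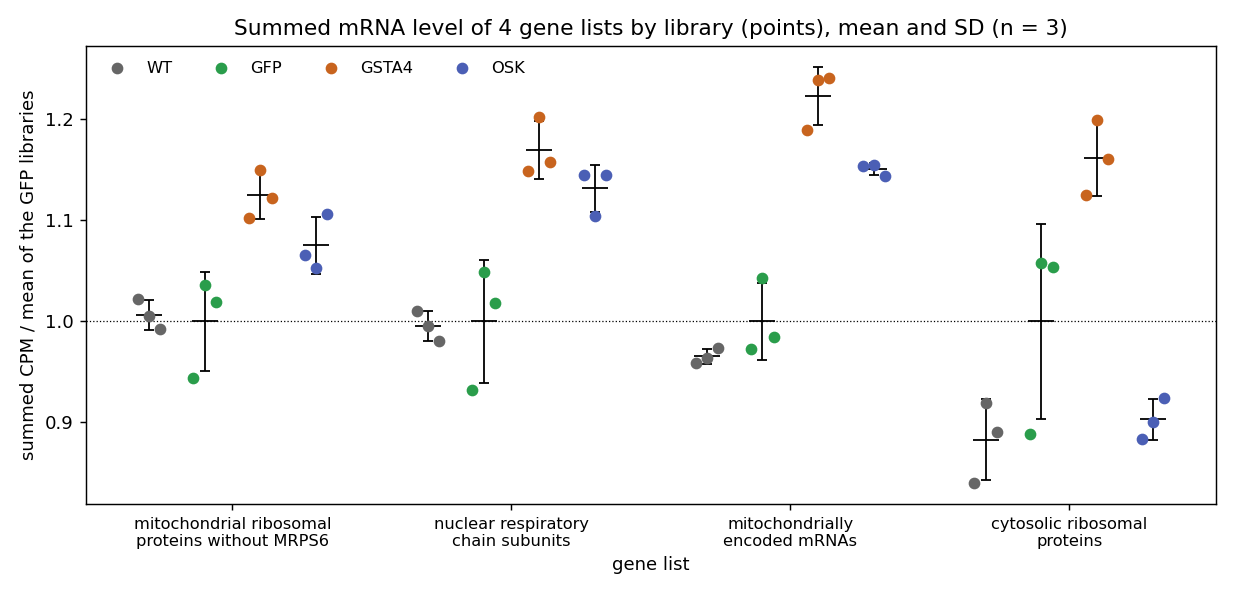
Summed CPM of 4 gene lists in each library divided by the mean of the GFP libraries (points), with mean and SD of 3 libraries a group. The mitochondrial ribosomal proteins without MRPS6 averaged 1.13 in GSTA4 and 1.08 in OSK, whereas cytosolic ribosomal proteins averaged 1.16 in GSTA4 and 0.903 in OSK. In WT the same lists averaged 1.01 and 0.883, in that order.

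Many members lie head to head with another gene, and 24 such pairs had both genes tested. The pair of MRPL46 and MRPS11 was counted from each side, so each of them counts as a member and as a neighbour. In GSTA4 against GFP, 9 of these members and 2 neighbours were called, and no pair had both called. In OSK against GFP, 9 members and 12 neighbours were called, with both called in 3 pairs and the same sign in 2. MRPL27 and EME1 (6 bases between starts) changed by 0.39 and 1.27, and MRPL36 and NDUFS6, a complex I subunit, by 0.34 and 0.42. MRPL41 and PNPLA7 went opposite ways (0.43 and -0.61). In GFP against WT, 4 members and 6 neighbours were called, with both called in 2 pairs. MRPL57 changed by -0.27 and SKA3, whose start is 43 bases away, by 3.40, and MRPS34 and EME2 by -0.36 and -0.41. In OSK against GSTA4, 4 members and 9 neighbours were called, with both in 1 pair, MRPL27 (-0.28) and EME1 (0.87). Over all genes tested, 29.2%, 45.9%, 22.2% and 47.8% were called in these 4 comparisons.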

How the data were processed

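The authors deposited raw read counts per gene for 12 libraries, made with STAR 2.7.1a and featureCounts 1.6.2, per the submitters' processing notes, which name human and mouse builds without their roles. The strand setting and the annotation release are not given in the sources used here. Lines without a symbol (0.485% to 0.822% of reads) were left out. Counts were scaled with TMM, filtered with filterByExpr and fitted in 1 edgeR quasi-likelihood model (edgeR 4.0.16, limma 3.58.1, R 4.3.3) with a mean per group. This left 15179 genes tested, 8 residual degrees of freedom and a common biological coefficient of variation of 7.91%. P-values were adjusted by the Benjamini-Hochberg method over all genes tested, and a call is an adjusted p under 0.05. Errors given as SE belong to log2 fold changes, and SD is over 3 libraries. A count of 3 reads corresponds to 0.177 to 0.239 CPM; such floors cover counting error only.

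Alternatives were DESeq2 1.42.0, library sizes alone, other filters, subsets of libraries and a replicate block. Figures and sums were made with Python 3.11. Gene positions and exon sharing came from GENCODE release 29, and promoter windows from RefSeq (GRCh38.p14). On simulated data, the fit recovered 86.4% to 87.5% of changes of 1 on the log2 scale, with 3 to 10 false calls a comparison. The members and lists were chosen with earlier results of these data known. Members with values were named by a rule: in each comparison the 8 largest rises and falls among called members with a mean of at least 1 CPM and no overlap between groups, the 5 smallest and 5 largest adjusted p of the F test, the MRPS18 paralogs and members that failed the filter. From each other list, up to 3 genes with the lowest adjusted p a comparison could be named; other members named were chosen after their values were seen.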

Additional observations from a re-analysis of the deposited data

How the results depend on the processing

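Over 15 alternatives a value, the 124 log2 fold changes of members named by the rule never changed direction with a call: of 1860 alternative values, 114 lost a call and 16 gained one, and 22 of 49 calls were kept in all. With library sizes alone, the OSK sum was 2184 CPM and the member medians were -0.000816 in OSK against GFP and -0.11 in OSK against GSTA4. Leaving out mitochondrially encoded genes gave sums of 2436 CPM in OSK, 2539 in GSTA4, 2279 in GFP and 2378 in WT. Leaving out MRPS6, an alternative chosen after seeing the data, gave subunit ratios of 0.621, 0.582, 0.592 and 0.605 in that order and a GSTA4 sum of 2335 CPM. With only the 6 libraries compared, 4 members were called in GFP against WT; the cause was not tested. Leaving out 1 library at a time gave 8 to 15 called members in GSTA4 against GFP, 13 to 24 in OSK against GFP, 4 to 8 in GFP against WT, 14 to 18 in OSK against GSTA4 and 30 to 40 by the F test. The member medians then ran from 0.11 to 0.17, 0.057 to 0.14, -0.06 to 0.01 and -0.07 to -0.02 for the 4 comparisons. The sums ran from 2247 to 2296 CPM in OSK, 2357 to 2398 in GSTA4, 2085 to 2167 in GFP and 2137 to 2264 in WT, and the ratios from 0.643 to 0.646, 0.607 to 0.624, 0.620 to 0.638 and 0.662 to 0.732. Deviations of same-numbered libraries were at most weakly correlated (-0.0282 to 0.181, the highest between GFP replicate 1 and WT replicate 1). The numbers were not taken to pair the libraries. With the replicate block, 17, 24, 10 and 22 members were called in the 4 comparisons and 38 by the F test. DESeq2 called 16, 23, 8 and 18, and 35 by its test over the 4 groups. The largest SE were those of MRPS6 (up to 0.35, with 414 to 4054 reads) and of MRPL38 (up to 0.27), a member of low count.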
